A study of Homo sapiens with 5 samples.

Results

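The proteasome subunit genes are the 48 genes, of 26485 in the count table, whose symbol is PSM followed by a letter from A to G and a number. They comprise 8 genes of the alpha ring (PSMA), 7 constitutive beta ring genes and 4 inducible or tissue-specific beta genes (PSMB), 6 ATPases of the 19S base (PSMC), 11 non-ATPase subunits and 3 assembly chaperones of the 19S particle (PSMD), 5 activators and inhibitors (PSME and PSMF) and 4 assembly chaperones of the 20S core (PSMG). Of the 48 genes, 46 passed the filter on low counts and were tested.

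The libraries were made from poly-A RNA of wild-type RPE1 cells, an established human line from the pigmented epithelium of the retina. In total, 2 libraries came from cells given DMSO, the solvent, 2 from cells given 0.2 μM doxorubicin and 1 from cells given 0.34 μM doxorubicin, each for 18 h. The sample labels give these doses, whereas the treatment text deposited with them states both as far higher whole numbers of μM. Doxorubicin is an anthracycline that intercalates into DNA and traps topoisomerase II, and the RNA-seq was made to follow the response of the cells to the drug. The 3 doxorubicin libraries were pooled, as in the methods of the study, and compared with the 2 DMSO libraries. The study calls its replicates biological, and the p-values measure the spread between these few libraries of a single cell line.

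The 26S proteasome degrades proteins tagged with ubiquitin. Its 20S core is a stack of alpha and beta rings with the proteolytic sites of PSMB5 (chymotrypsin-like), PSMB6 (caspase-like) and PSMB7 (trypsin-like) inside, and the 19S particle binds ubiquitin chains, removes them and unfolds the substrate with its ATPase ring. Under interferon the catalytic subunits are replaced by PSMB8, PSMB9 and PSMB10, which form the immunoproteasome and change the peptides offered to MHC class I, while loss of proteasome activity is known to induce most subunit genes together through the transcription factor NFE2L1.

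The total counts were between 23773061 and 36725345 per library. The p53 target CDKN1A, a marker of the DNA damage response, was at 294 and 258 CPM (counts relative to library size, normalized by the TMM method) in DMSO and at 2366 to 3358 CPM in doxorubicin, so the libraries separated as labelled. Of 9 markers of the labelled cell type, 3 defining genes of mature retinal pigment epithelium had few counts in every library (RPE65 3 to 8, RLBP1 0 to 3 and TYR 0 to 5), whereas the lineage factors MITF (743 to 1503 counts) and OTX2 (601 to 887 counts) and the epithelial keratins KRT8 and KRT18 were well detected. The summed level of the 9 markers was 637 to 783 CPM in DMSO and 1050 to 1249 CPM in doxorubicin. KRT8 (357 and 653 CPM on average in DMSO and doxorubicin) and KRT18 (282 and 436 CPM) made up most of this difference, while the log2 fold changes of MITF and OTX2 were 0.05 and -0.02. BEST1 and PMEL, at low counts, were higher in every doxorubicin library than in DMSO. BEST1 had 26 and 14 counts in DMSO and 30 to 142 in doxorubicin (log2 fold change 1.88, edgeR adjusted p = 0.0823). PMEL had 7 and 5 counts in DMSO and 22 to 46 in doxorubicin (log2 fold change 2.29, edgeR adjusted p = 0.0264).

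None of the 46 proteasome subunit genes passed the threshold between doxorubicin and DMSO (edgeR's quasi-likelihood test, Benjamini-Hochberg adjusted p under 0.01), whereas 4.02% of the 14187 genes tested did. Among the 10624 genes with mean expression in the same range as the subunit genes, 5.08% passed. At an unadjusted p under 0.05 there were 5 subunit genes, against 4368 of all genes. These were PSMB10, PSMG1, PSMD11, PSMB2 and PSMA4, of which PSMD11 is named here after its value was seen. limma voom, which called 3.71% of all genes, also called none of the subunit genes. DESeq2, which called 14.1% of all genes, called PSMB10 alone, as higher, and at an adjusted p under 0.05 edgeR called the same gene and 13.6% of all genes.

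Most fold changes of the subunit genes were small. The median log2 fold change was -0.07, with 20 genes higher and 26 lower, compared with a median of 0.01 over all genes. The median absolute log2 fold change was 0.20 for the subunit genes and 0.38 for all genes. Here and for the intervals below, all genes were not matched to the subunit genes in expression. Their median SE was larger, 0.23 against 0.17. For 44 of 46 subunit genes the 95% interval lay between -1 and 1, that is within a doubling or halving of the mRNA level, as it did for 49.4% of all genes. The exceptions were PSMB10 and PSMG1. The doxorubicin and DMSO libraries did not overlap in 19 of 46 subunit genes, 8 higher and 11 lower in doxorubicin, and in 47.7% of all genes. The share of all counts taken by the 48 genes was 0.472 ± 0.0845% in DMSO (SD, n = 2) and 0.445 ± 0.0301% in doxorubicin (SD, n = 3), a difference smaller than the spread between the DMSO libraries, and it turned positive without DMSO replicate 2. In such bulk samples, fewer cells that express a gene and less of its RNA per cell cannot be told apart.

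**Figure D1:**
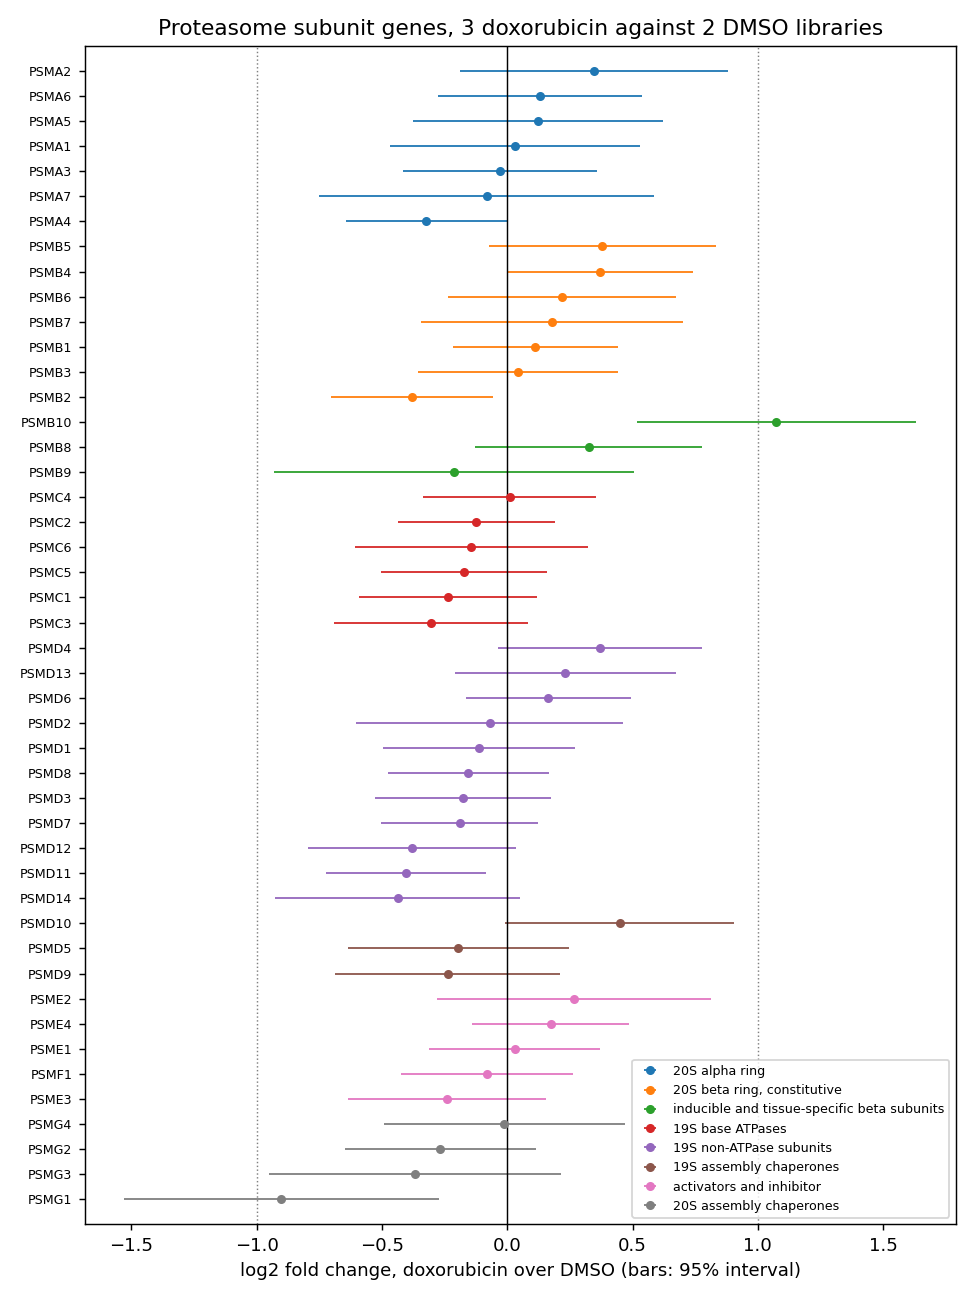
Log2 fold change of each of the 46 proteasome subunit genes tested, doxorubicin over DMSO, in order of role (colours) and fold change. Points are edgeR estimates, bars are 95% intervals and dotted lines mark a doubling and a halving. Only the intervals of PSMB10 (0.52 to 1.63) and PSMG1 (-1.53 to -0.27) reach past a dotted line.

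The inducible beta subunits differed from each other in direction and size. PSMB10, the trypsin-like subunit of the immunoproteasome (chromosome 16 of GRCh38, 67934506 to 67936850), was at 7.71 and 11.7 CPM in the DMSO libraries, at 21.3 and 18.5 CPM in the 0.2 μM libraries and at 21.4 CPM in the 0.34 μM library. All 3 doxorubicin libraries were above both DMSO libraries. Its log2 fold change was 1.07 (SE 0.23, 95% interval 0.52 to 1.63, edgeR adjusted p = 0.0294), which missed the threshold of 0.01, whereas the adjusted p of DESeq2 was 0.000769. It was the largest positive fold change among the 46 genes. Over 17 alternative settings the log2 fold change of PSMB10 remained between 0.80 and 1.39 and its adjusted p was between 0.000769 and 0.161.

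PSMB8, the chymotrypsin-like subunit of the immunoproteasome (chromosome 6, 32840717 to 32844679), was at 21.7 and 30.0 CPM in DMSO, at 32.0 and 31.0 CPM at 0.2 μM and at 34.3 CPM at 0.34 μM. Although the groups did not overlap, the highest DMSO value lay within 1 CPM of the lowest doxorubicin value, and the log2 fold change of 0.33 (SE 0.19, 95% interval -0.13 to 0.78, edgeR adjusted p = 0.298) did not pass. The PSMB8 locus overlaps the antisense gene PSMB8-AS1, and no source used here gives the strand setting of the counting, so reads of the pair may not be separated.

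PSMB9, the immunoproteasome subunit that takes the place of PSMB6, was the lowest of the tested genes per length of transcript. It was at 5.49 and 3.84 CPM in DMSO, at 4.64 and 3.16 CPM at 0.2 μM and at 4.27 CPM at 0.34 μM. The groups overlapped, and the log2 fold change was -0.21 (SE 0.30, 95% interval -0.93 to 0.51, edgeR adjusted p = 0.681) and changed sign without DMSO replicate 1. The thymus-specific PSMB11 had 2 counts in 1 doxorubicin library and 0 in the others, where a count of 0 allows up to 3, and was not tested.

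The genes that PSMB10, PSMB9 and PSMB8 replace were compared with them as log2 ratios within each library. The PSMB10 to PSMB7 ratio was -2.68 and -2.75 in DMSO, -1.70 and -2.12 at 0.2 μM and -1.68 at 0.34 μM, a mean change of 0.88. All doxorubicin ratios were above the DMSO ratios, and p was 0.2 (exact two-sided permutation test), the smallest that 10 arrangements of 3 and 2 libraries allow. For PSMB8 to PSMB5 the change was -0.06 (p = 0.4, same exact permutation test). For PSMB9 to PSMB6 it was -0.45 (p = 0.6, same exact permutation test), with DMSO ratios of -3.40 and -4.47, a wider gap than the change itself. The ratio change was positive for 1 of the 3 replaceable pairs and negative for the other pairs, and the design cannot reach p under 0.05 for any of them.

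The constitutive catalytic genes had similar levels in all doxorubicin libraries and unequal levels in DMSO. PSMB5 was at 61.7 and 90.8 CPM in DMSO, at 100.2 and 96.5 CPM at 0.2 μM and at 101 CPM at 0.34 μM. The groups did not overlap, and the log2 fold change of 0.38 (SE 0.19, 95% interval -0.07 to 0.83, edgeR adjusted p = 0.229) did not pass. Leaving out DMSO replicate 1 or 2 gave 0.12 or 0.67 for PSMB5. PSMB6 was at 58.9 and 86.8 CPM in DMSO, at 85.8 and 86.4 CPM at 0.2 μM and at 82.1 CPM at 0.34 μM, so that DMSO replicate 2 was above all doxorubicin libraries and DMSO replicate 1 below them. PSMB7 was at 49.8 and 79.0 CPM in DMSO, at 69.3 and 80.6 CPM at 0.2 μM and at 68.9 CPM at 0.34 μM, with the groups overlapping. The log2 fold changes of PSMB6 and PSMB7 were 0.22 (SE 0.19) and 0.18 (SE 0.22), and both turned negative without DMSO replicate 1.

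**Figure D2:**
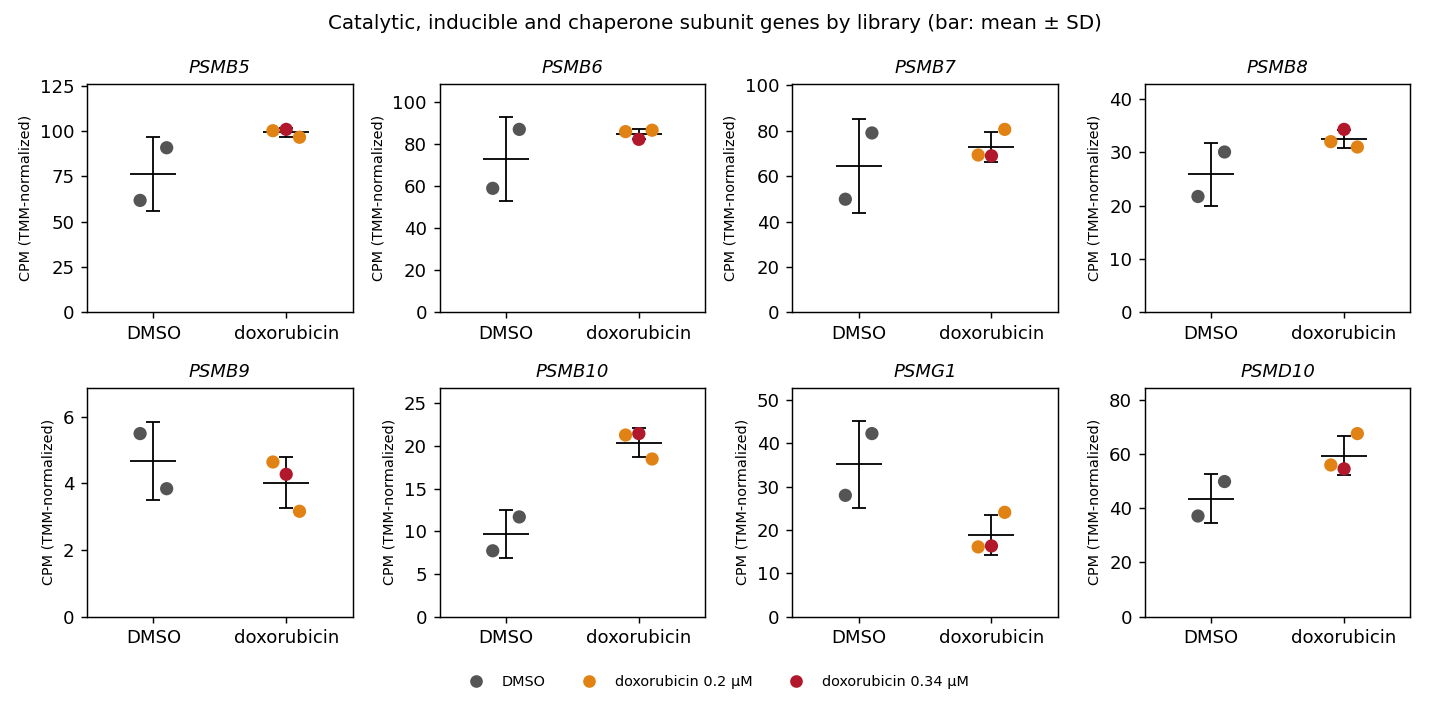
Level in each library (y axis, TMM-normalized CPM) of the catalytic genes PSMB5, PSMB6 and PSMB7, their inducible partners PSMB8, PSMB9 and PSMB10, and the chaperone genes PSMG1 and PSMD10. Points are libraries, coloured by dose, and bars are the mean ± SD of 2 DMSO and 3 doxorubicin libraries. PSMB10 lies at 18.5 to 21.4 CPM in doxorubicin against 7.71 and 11.7 CPM in DMSO, PSMG1 lies lower in doxorubicin, and the DMSO points of PSMB6, PSMB7 and PSMB9 overlap with the doxorubicin points.

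Of the 7 constitutive beta ring genes, 6 had a positive fold change, with a median of 0.18, and none passed the threshold. This median turned to -0.04 without DMSO replicate 1. The exception in direction was PSMB2, a non-catalytic subunit, with 182 and 186 CPM in DMSO, 140 and 150.2 CPM at 0.2 μM and 134 CPM at 0.34 μM. All doxorubicin libraries of PSMB2 were below both DMSO libraries, which lay close together, and the log2 fold change was -0.38 (SE 0.14, 95% interval -0.70 to -0.06, edgeR adjusted p = 0.113). PSMB4, another non-catalytic subunit, had a log2 fold change of 0.37 (SE 0.16) in the opposite direction, also without overlap of the groups.

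In the alpha ring, whose subunits gate the entry to the core, 4 of 7 genes tested were higher and 3 lower, with a median of 0.03 that changed sign in 4 of 16 alternatives. The largest positive fold change was that of PSMA2, with 48.4 and 80.5 CPM in DMSO, 80.0 and 84.5 CPM at 0.2 μM and 81.3 CPM at 0.34 μM. DMSO replicate 2 fell within the doxorubicin values, and the log2 fold change was 0.35 (SE 0.22, 95% interval -0.19 to 0.88, edgeR adjusted p = 0.345), or 0.018 and 0.74 with DMSO replicate 1 or 2 left out. PSMA4 was the lowest in fold change, with 124 and 126 CPM in DMSO, 102 and 105 CPM at 0.2 μM and 92.3 CPM at 0.34 μM. Its groups did not overlap, and the log2 fold change was -0.32 (SE 0.13, edgeR adjusted p = 0.161). PSMA8, the testis form of an alpha subunit, had 0 counts in 3 libraries, including both of DMSO, and 2 and 1 in the others, and was not tested.

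More subunits of the 19S particle had negative than positive fold changes, and none passed the threshold. Of the 6 ATPases, 5 were lower and 1 higher, with a median of -0.16, and of the 11 non-ATPase subunits 8 were lower and 3 higher, with a median of -0.16 as well. Both medians kept their sign in all 16 alternatives. PSMC3 had the lowest fold change of the ATPases, with 118 and 149 CPM in DMSO, 118 and 101 CPM at 0.2 μM and 105 CPM at 0.34 μM (log2 fold change -0.30, SE 0.16, edgeR adjusted p = 0.259). PSMC4 was at 73.8 and 87.5 CPM in DMSO and at 78.8 to 85.4 CPM in doxorubicin, with the DMSO values on either side (log2 fold change 0.01, 95% interval -0.34 to 0.35).

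The ubiquitin receptor PSMD4 and PSMD14, the deubiquitinase that removes the chains, marked the extremes of the non-ATPase subunits. PSMD4 was at 74.0 and 100.04 CPM in DMSO, at 113 and 117 CPM at 0.2 μM and at 108 CPM at 0.34 μM, with no overlap (log2 fold change 0.37, SE 0.17, 95% interval -0.04 to 0.78, edgeR adjusted p = 0.197). Leaving out DMSO replicate 1 or 2 gave 0.16 or 0.59 for PSMD4. PSMD14 was at 77.4 and 115 CPM in DMSO, at 70.4 and 79.5 CPM at 0.2 μM and at 62.8 CPM at 0.34 μM, where DMSO replicate 1 fell among the doxorubicin values (log2 fold change -0.44, SE 0.21, 95% interval -0.93 to 0.05, edgeR adjusted p = 0.204). PSMD11, a scaffold subunit of the lid, was at 132 and 145 CPM in DMSO and at 101 to 109 CPM in doxorubicin, with no overlap (log2 fold change -0.40, SE 0.13, edgeR adjusted p = 0.0927).

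The chaperones that assemble the 19S base differed in direction from each other. PSMD10, also known as gankyrin, which binds the ATPase PSMC4, was at 37.2 and 49.9 CPM in DMSO, at 56.1 and 67.7 CPM at 0.2 μM and at 54.6 CPM at 0.34 μM. All doxorubicin libraries were above DMSO, and the log2 fold change was 0.45 (SE 0.19, 95% interval -0.01 to 0.91, edgeR adjusted p = 0.170). PSMD9 was at 33.8 and 46.5 CPM in DMSO, at 36.8 and 31.5 CPM at 0.2 μM and at 33.8 CPM at 0.34 μM, and its log2 fold change was -0.24 (SE 0.19). PSMD5 had a log2 fold change of -0.20 (SE 0.19). PSMD10 overlaps ATG4A and has 3 annotated pseudogenes, so its counts could include reads of other loci.

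All 4 chaperones of the 20S core had negative fold changes, with a median of -0.32, and the sign of this median held in the 16 alternatives. PSMG1, which pairs with PSMG2 to hold the alpha ring during assembly (chromosome 21, 39174769 to 39183514), was at 28.0 and 42.3 CPM in DMSO, at 16.1 and 24.1 CPM at 0.2 μM and at 16.3 CPM at 0.34 μM. The doxorubicin libraries lay below both DMSO libraries, although replicate 2 at 0.2 μM came within 4 CPM of DMSO replicate 1. The log2 fold change was -0.90 (SE 0.26, 95% interval -1.53 to -0.27, edgeR adjusted p = 0.0675) and the adjusted p of DESeq2 was 0.0149. It was the lowest fold change of the 46 genes and remained between -1.18 and -0.59 over the alternatives, with adjusted p from 0.00704 to 0.235. Its partner PSMG2 had a log2 fold change of -0.27 (SE 0.16), without overlap of the groups. PSMG3 and PSMG4, which form the other chaperone pair, had log2 fold changes of -0.37 (SE 0.24) and -0.01 (SE 0.20). PSMG4 was at 7.55 and 8.30 CPM in DMSO and at 7.53 to 8.12 CPM in doxorubicin, with the groups overlapping.

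Of the activators, which cap the 20S core in place of the 19S particle, and the inhibitor PSMF1, 3 were higher and 2 lower, with a median of 0.03 that changed sign in 2 of 16 alternatives. PSME2, a subunit of the interferon-inducible activator, was at 34.7 and 51.9 CPM in DMSO, at 44.4 and 61.0 CPM at 0.2 μM and at 51.1 CPM at 0.34 μM, with overlapping groups (log2 fold change 0.27, SE 0.23). For PSME2 the value was -0.0041 or 0.57 with DMSO replicate 1 or 2 left out. Its partner PSME1 had a log2 fold change of 0.03 (SE 0.14). PSME3, the nuclear activator, was at 210.04 and 192 CPM in DMSO, at 155 and 197 CPM at 0.2 μM and at 158 CPM at 0.34 μM, where replicate 2 at 0.2 μM lay between the DMSO values (log2 fold change -0.24, SE 0.17). PSMF1 was at 110 and 91.9 CPM in DMSO and at 91.5 to 98.2 CPM in doxorubicin (log2 fold change -0.08, SE 0.14). None of the 5 genes passed the threshold.

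For orientation, the 250 bases before the start that the RefSeq promoter table lists are shown for the genes with the highest and the lowest fold change, PSMB10 and PSMG1, and for PSMB9 and its neighbour TAP1. They are RefSeq sequences of GRCh38.p14 from 5′ to 3′ on the strand of each gene, at chr16:67936851-67937100 (minus strand), chr21:39183452-39183701 (minus), chr6:32853942-32854191 (plus) and chr6:32853705-32853954 (minus). For PSMG1 the listed start, base 39183451, lies inside the span of the gene given above, so that the 3′ end of the window falls within the annotated gene, and its distances count from that base. Capitals mark motifs found on either strand, namely the interferon response element core GAAANNGAA, the antioxidant response element core TGACNNNGC bound by NFE2L1 and NFE2L2, the cell cycle homology region TTTGAA, the ETS core CCGGAAG and the CCAAT box.
PSMB10: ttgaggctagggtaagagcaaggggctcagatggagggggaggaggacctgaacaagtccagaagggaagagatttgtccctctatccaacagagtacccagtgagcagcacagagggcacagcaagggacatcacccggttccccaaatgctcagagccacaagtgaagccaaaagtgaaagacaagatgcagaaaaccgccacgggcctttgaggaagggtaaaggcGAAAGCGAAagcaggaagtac
PSMG1: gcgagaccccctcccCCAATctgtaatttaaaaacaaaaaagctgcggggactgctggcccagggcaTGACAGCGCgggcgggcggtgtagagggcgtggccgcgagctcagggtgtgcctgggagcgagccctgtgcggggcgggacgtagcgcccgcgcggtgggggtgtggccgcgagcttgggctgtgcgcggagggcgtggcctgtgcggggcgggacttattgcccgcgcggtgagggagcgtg
PSMB9: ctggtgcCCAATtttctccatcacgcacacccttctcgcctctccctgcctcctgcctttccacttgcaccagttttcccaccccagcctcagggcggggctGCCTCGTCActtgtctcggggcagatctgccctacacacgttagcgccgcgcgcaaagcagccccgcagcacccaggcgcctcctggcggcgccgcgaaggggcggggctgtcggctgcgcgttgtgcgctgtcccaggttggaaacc
TAP1: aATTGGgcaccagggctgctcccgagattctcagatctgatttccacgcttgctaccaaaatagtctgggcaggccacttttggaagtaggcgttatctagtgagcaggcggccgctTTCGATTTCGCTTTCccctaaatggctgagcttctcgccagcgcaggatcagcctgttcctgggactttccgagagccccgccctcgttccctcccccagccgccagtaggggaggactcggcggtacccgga

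PSMB10 held GAAANNGAA at 21 to 13 bases before its start. TAP1 held this core at 133 to 125 and at 127 to 119 bases before its start, where the matches overlap, and the PSMB9 window held none. The starts of PSMB9 and TAP1 are 487 bases apart on opposite strands, and their windows share 13 bases, so that the CCAAT box in both is the same stretch of DNA. PSMG1 and PSMB9 held TGACNNNGC at 183 to 175 and 148 to 140 bases before their listed starts.

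Promoters of 42 of the 48 subunit genes were matched, and all 27305 genes with a listed promoter were searched in the same window. A gene was counted when any of its listed promoters held the motif. TGACNNNGC was present in 13 of the 42 (31.0%, and 13.2% of all genes with a promoter), CCGGAAG in 11 (26.2% and 10.2%), CCAAT in 19 (45.2% and 37.0%), TTTGAA in 5 (11.9% and 16.1%) and GAAANNGAA in 5 (11.9% and 8.41%). The promoters with GAAANNGAA were those of PSMA4, PSMB4, PSMB10, PSME2 and PSMG4, whose log2 fold changes were -0.32, 0.37, 1.07, 0.27 and -0.01. The motifs were chosen after the fold changes were known, and a match is a stretch of letters, not a measured binding site.

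Among 38 genes that work with the proteasome but carry no PSM symbol, 17 were higher and 21 lower (median log2 fold change -0.03). Of these, 1 passed the threshold of edgeR, as did 4.02% of all genes tested. The gene that passed was TAP1, a subunit of the transporter that carries peptides to MHC class I (chromosome 6, 32845209 to 32853704). TAP1 was at 16.5 and 19.6 CPM in DMSO, at 53.4 and 49.1 CPM at 0.2 μM and at 67.0 CPM at 0.34 μM. Every doxorubicin library was more than 2 times above every DMSO library, and the log2 fold change was 1.65 (SE 0.20, 95% interval 1.16 to 2.13, edgeR adjusted p = 0.00472). The adjusted p of DESeq2 was 8.4e-11. When any doxorubicin library was left out, TAP1 no longer passed (edgeR adjusted p between 0.0131 and 0.0194). Those fits called 1.28 to 1.48% of all genes, so the loss of a call was not particular to TAP1. With any of the 5 libraries left out, the log2 fold change of TAP1 remained between 1.51 and 1.76. The log2 ratio of TAP1 to its divergent neighbour PSMB9 was 1.95 ± 0.53 in DMSO (SD, n = 2) and 3.79 ± 0.25 in doxorubicin (SD, n = 3). Its p was 0.2 (exact two-sided permutation test), the smallest possible value. TAP1 is named for having passed the threshold, so this ratio largely restates its rise and adds no separate test. TAP1 overlaps PSMB8-AS1, which limits the certainty of its counts.

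The interferon regulators and peptide loading genes, a list of 7, had 6 higher and 1 lower, with a median of 0.26. Among them, IRF1 and NLRC5, activators of MHC class I genes, had log2 fold changes of 0.12 (SE 0.22) and 0.32 (SE 0.26), and B2M, the light chain of MHC class I, 0.26 (SE 0.19).

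Immunoproteasome subunits are constitutive in blood cells, so blood cell markers were examined beside PSMB10. Of 6 markers, CD3E was at 0 in every library, and CD14, LYZ and CD74 had at most 15 counts in any. PTPRC was higher, and for it the DMSO libraries held 5 and 7 counts and the doxorubicin libraries 25, 53 and 72. The summed level of the 6 markers was 0.305 to 0.744 CPM in DMSO and 1.28 to 2.83 CPM in doxorubicin, and its part in the level of PSMB10 was not tested.

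The genes linked to the recovery of the proteasome after its inhibition did not pass the threshold. NFE2L1 was at 398 ± 16.3 CPM in DMSO (SD, n = 2) and at 397 ± 12.9 CPM in doxorubicin (SD, n = 3), with a log2 fold change of -0.0036 (95% interval -0.34 to 0.33). Of the 7 genes of this pathway, which include DDI2, the protease that processes NFE2L1, and VCP, which extracts it from the membrane, 3 were higher and 4 lower, with a median of -0.0036, and neither edgeR nor DESeq2 called any. All 5 shuttle receptors, which deliver ubiquitinated proteins, had negative fold changes with a median of -0.16. Of the 8 deubiquitinases, ligases and adaptors bound to the proteasome, 6 were lower, and DESeq2 called UCHL5 as lower and ZFAND5 as higher. UCHL5, a deubiquitinase of the 19S particle, had a log2 fold change of -0.85 (SE 0.20, edgeR adjusted p = 0.0385) and ZFAND5, an activator of the 26S proteasome, of 0.59 (SE 0.16, edgeR adjusted p = 0.0527). AKIRIN2, which carries proteasomes into the nucleus, had a log2 fold change of -0.66 (SE 0.15, edgeR adjusted p = 0.0352) and was called as lower by DESeq2 among the 5 subunits and assembly factors without a PSM symbol. Of the 6 ubiquitin and E1 genes, 4 were higher and none was called by either tool. UCHL5, ZFAND5 and AKIRIN2 are named by DESeq2 calls seen in the data. Over the 38 genes of all lists, DESeq2 called 3 as higher and 3 as lower, and it called 14.1% of all genes.

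The spread between the DMSO libraries was of the same size as most of the differences. DMSO replicate 2 was above DMSO replicate 1 in 37 of 46 subunit genes, with a median difference of 0.34 on the log2 scale, whereas the median over all genes was 0.01. This held for all 7 tested alpha ring genes and all 7 constitutive beta ring genes, with medians of 0.59 and 0.41. On the log2 scale PSMA7 showed the widest gap, 0.97, with 77.5 and 152 CPM. The median absolute difference of the subunit genes was 0.34 between the DMSO libraries and 0.14 between the 0.2 μM libraries. Over all genes tested these values were 0.36 and 0.29, so the subunit genes differed in their shared direction, not in the size of the DMSO gap. Leaving out DMSO replicate 1 or 2 also gave log2 fold changes of 0.10 or 0.56 for PSMB8, 0.24 or 0.66 for PSMD10, -0.70 or -0.15 for PSMD14, -0.47 or -0.14 for PSMC3 and -0.46 or -0.0073 for PSMD9. PSMF1 (0.05 and -0.22), PSMC4 (-0.12 and 0.12) and PSMG4 (-0.09 and 0.04) differed in sign between these settings. In 29 of 46 subunit genes the fold change between doxorubicin and DMSO was smaller than the difference between the DMSO libraries, as in 6951 of the 14187 genes tested. The cause of the difference between the DMSO libraries was not tested.

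Fold changes against single DMSO libraries differed accordingly. The median difference of the subunit genes was 0.07 between replicate 1 at 0.2 μM and DMSO replicate 1, and -0.07 between replicate 2 at 0.2 μM and DMSO replicate 2. In these comparisons, which share no library, 13 subunit genes were higher in both and 14 lower in both, 27 of 46 in all, compared with 9689 of 14187 among all genes. The 6 ATPases included 4 that were lower in both and none that was higher in both. Leaving out DMSO replicate 1 gave a median over the subunit genes of -0.15, and leaving out DMSO replicate 2 gave 0.05.

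**Figure D3:**
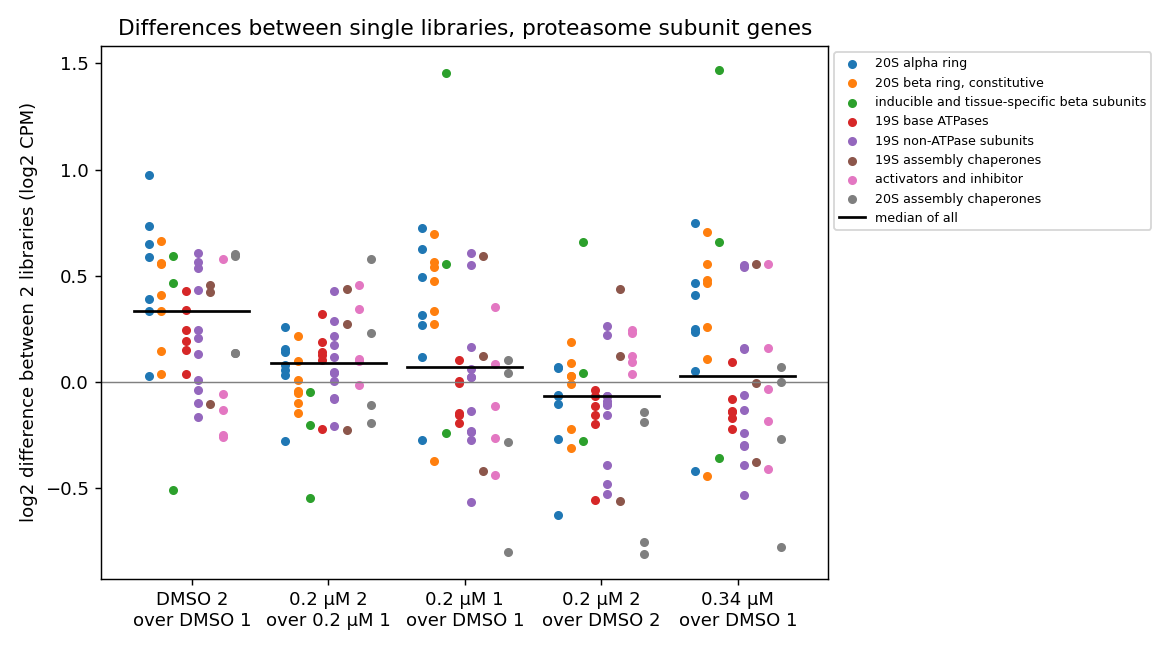
Log2 differences between single libraries for the 46 proteasome subunit genes tested (y axis, log2 CPM), coloured by role, with a black bar at the median. The first column compares the DMSO libraries and has the highest median, 0.34. The medians of the comparisons of doxorubicin with DMSO libraries lie near 0, and PSMB10 is the highest point in each of the last 3 columns.

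The doses were compared in a fit of 3 conditions, in which the lone 0.34 μM library is assumed to vary like the others. None of the subunit genes passed the threshold between 0.34 and 0.2 μM (edgeR), none had an unadjusted p under 0.05, and DESeq2 called none. Of the 14745 genes tested, 0% were called and 27 had an unadjusted p under 0.05. The largest absolute log2 difference between the doses among the subunit genes was 0.30, for PSMG1. Against DMSO, the median log2 fold change of the subunit genes was -0.04 at 0.2 μM and -0.12 at 0.34 μM, and the same DMSO libraries stand in both values.

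Levels were compared between genes as CPM per kilobase of the MANE Select transcript. In DMSO the 46 genes ranged from 4.59 to 210 CPM per kilobase, with a median of 53.4. PSMD2, a scaffold of the 19S base, was the highest at 210 ± 61.7 (SD, n = 2), followed by PSMB4 at 143 ± 23.4 and PSMA7 at 119 ± 54.9. The constitutive beta ring genes had a median level of 86.7 and the alpha ring genes of 69.6 CPM per kilobase in DMSO. The ATPases lay at a median of 44.4, and the 19S and 20S chaperones at 14.7 and 15.1. The inducible genes lay below their constitutive partners. PSMB8 was at 23.0 and PSMB5 at 73.0, PSMB9 at 4.59 and PSMB6 at 88.4, and PSMB10 at 9.92 and PSMB7 at 65.5 CPM per kilobase. The level of PSMB10 in doxorubicin, 20.9 ± 1.71 (SD, n = 3), was still under that of PSMB7 at 74.1.

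The order of the genes was similar in both conditions, with a Spearman correlation of 0.97 between the mean levels of the 46 genes, which share the libraries' depth and the transcript lengths. Neighbours in the order were not separable for 39 of the genes, whose DMSO values overlapped with those of the next. PSMB10 stood at place 44 in DMSO and 36 in doxorubicin, PSMG1 at 36 and 43, PSMB5 at 14 and 7 and PSMD4 at 17 and 10.

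**Figure D4:**
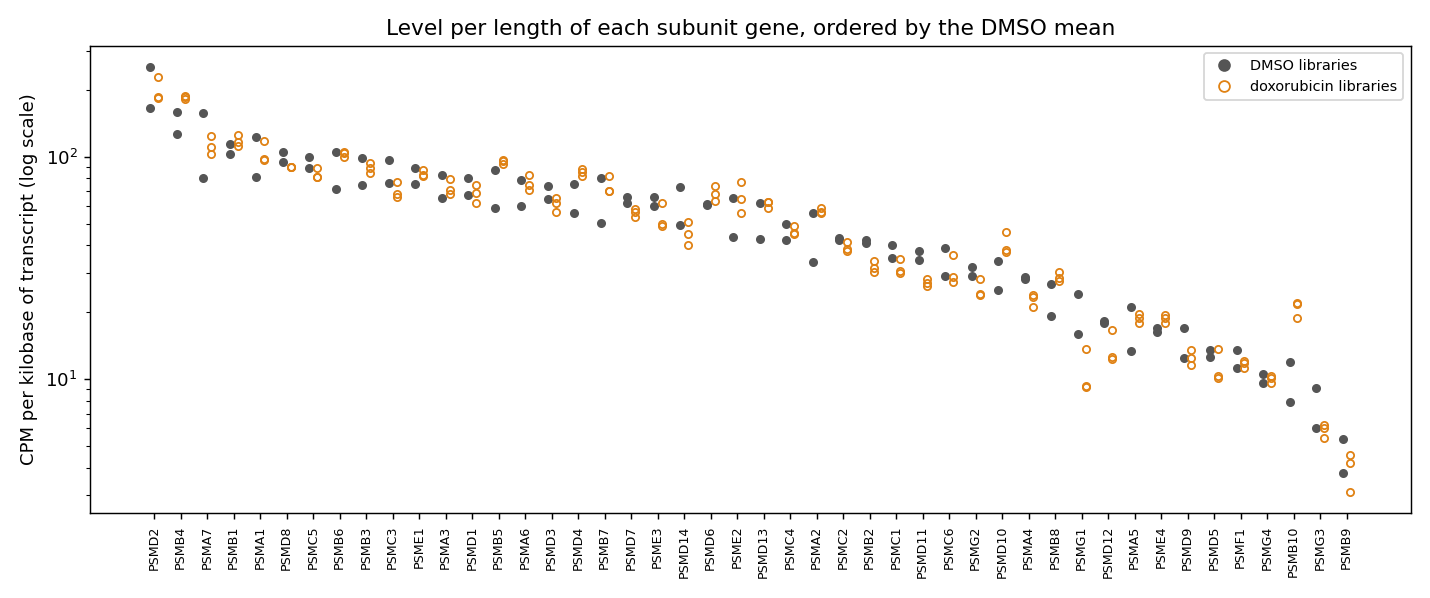
Level per length (y axis, CPM per kilobase of transcript, log scale) of the 46 proteasome subunit genes tested, ordered by the DMSO mean. Filled points are the 2 DMSO libraries and open points the 3 doxorubicin libraries. PSMD2 is the highest at 210 and PSMB9 the lowest at 4.59 CPM per kilobase in DMSO, and PSMB10 stands above its neighbours in doxorubicin.

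The subunit genes lie on 17 chromosomes, and 28 overlap no other gene annotated by RefSeq, among them PSMB10, PSMB9, PSMG1, PSMB5 and PSMA4. The other 20 overlap at least 1 annotated gene, and 21 have processed or other pseudogenes named after them, 52 in all with 13 of PSMC1 and 6 of PSME2. No source used here says how the authors' counting treated reads that fit several loci, so the counts of these genes are less certain. No pseudogene is named after PSMB10, PSMG1 or PSMB9.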

How the data were processed

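Raw counts of reads per gene were deposited by the authors, with hg38, STAR, featureCounts and DESeq2 named in their processing notes. No source used here gives versions, the strand setting or the treatment of reads from repeated loci. The deposited table of the authors' own comparison (mean normalized counts, log2 fold changes, statistics and p-values) was not used.

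Tests on the counts used edgeR 4.0.16 in R 4.3.3 (TMM, minimum count of 10, minimum total of 15, quasi-likelihood test, Benjamini-Hochberg adjustment over 14187 of 26485 genes, threshold 0.01), without covariates. Standard errors are the absolute log2 fold change over the square root of F. Log2 CPM used a prior count of 2. DESeq2 1.42.0 and limma 3.58.1 (voom) were alternatives, with other normalizations, filters, dose groupings, thinned counts, each library left out and a replicate block. The pipeline was tested on simulated data.

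The members and lists were chosen with earlier results of these data known. Values are printed for the catalytic genes and their inducible partners, the highest and lowest fold change of each role, PSMD10, PSME3 and PSMF1, and for genes of the other lists past the threshold, and other genes named were chosen after their values were seen. Some genes of the lists are not reported here by name. Transcript lengths came from Gencode, lifted to another build and used for lengths only, and positions and promoters from RefSeq GRCh38.p14. Libraries of 1 condition differed by more than sampling noise (chi-square per degree of freedom of 117 for DMSO and 75.3 for 0.2 μM).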

Additional observations from a re-analysis of the deposited data

How the results depend on the processing

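PSMA8 and PSMB11, with 0 to 2 counts, did not pass the filter on low counts, and without the filter they were not called. The number of subunit genes called was 0 in each direction in edgeR and in most alternatives, but 1 higher (PSMB10) with DESeq2 and 1 higher (PSMB10) at an adjusted p under 0.05. With each doxorubicin library left out it was 0 in each direction. These fits called only 1.28 to 1.48% of all genes, so a count of 0 among 46 says little about the subunit genes. Of the 20 subunit genes with values printed by rule, 13 kept their direction in all 17 alternatives. The median log2 fold change of the subunit genes was between -0.15 and 0.05 with each library left out. The log2 ratio of PSMB9 to PSMB6 changed by 0.083 without DMSO replicate 1 in place of -0.45, a reversed direction, and by between -0.99 and 0.083 over the libraries left out, with -0.11 to -0.02 for PSMB8 to PSMB5 and 0.81 to 1.02 for PSMB10 to PSMB7. The share of counts changed by -0.087 to 0.033 percentage points. The causes were not tested.

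The second library of DMSO and of 0.2 μM is marked rep2 in the labels and the labels do not say whether equal numbers share a culture or day, so the libraries were not treated as paired. The differences between the libraries of each condition correlated at 0.53 across 14187 genes and at 0.03 across the 46 subunit genes. With a replicate block over all libraries, 1546 of all genes were called in either direction, and of the subunit genes 1, PSMG1, was called as lower (edgeR adjusted p = 0.00704) and 0 as higher. With the block and without the 0.34 μM library, 1249 genes and 0 subunit genes were called. The median of the subunit genes was 0.00 and -0.01 in these fits.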
